A study of Homo sapiens with 26 samples.

Results

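The genes described here are 10 contractile and adhesion genes named as targets of serum response factor (SRF): TGFB1I1, TAGLN, CNN1, CNN2, MYL9, VCL, TPM1, TPM2, ACTN1 and FLNA. They were found by gene symbol in each of 3 tables of normalized signal per gene, and they were chosen with their changes against control cells known, so those changes are given as a description and not as tests. Of the 10, 9 are listed in every table, which hold 11823, 11679 and 12140 genes, and all 9 had a mean of at least 10 in each table and entered the fits. CNN1, which encodes calponin 1 of smooth muscle, is not listed, so its expression was not analysed here. The RNA came from 786-O cells, a line from a human kidney cancer of the clear cell type that lacks functional VHL, after transfection with 1 siRNA against a gene placed in nuclear speckles, the nuclear bodies rich in splicing factors. Each knockdown group received SART1 siRNA 4 or 6, SARNP siRNA 9 or 3, DDX39A siRNA 4 or 1, TMEM259 siRNA 5 or 6, or FIBP siRNA 7 or 6, and control cells received the AllStars negative control siRNA. All groups were given DharmaFECT 1, grew in RPMI with serum, were split 24 h after transfection and harvested at 48 h. With 2 libraries for each of the 13 groups there were 26 in all. One table holds SART1, another SARNP and DDX39A, the last TMEM259 and FIBP, and each has its own 2 control libraries, so siRNAs of 1 table share their controls. No label says that both libraries of a group are separate transfections, so p-values measure only the spread between these libraries, which may be technical.

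SRF is a transcription factor that binds the CArG box, a short motif with an A- and T-rich middle. Cofactors of the MRTF family (MKL1 and MKL2 in these tables) are held back by monomeric actin and join SRF when actin polymerizes, and this arm drives genes of the actin cytoskeleton, contraction and cell adhesion. Cofactors of the ternary complex family (ELK1, ELK3 and ELK4) join SRF after growth factor signalling and drive immediate early genes such as FOS and EGR1. The protein products of the genes described here bind or bundle actin filaments, regulate myosin, or link actin to integrins at focal adhesions.

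RefSeq promoter windows of GRCh38.p14, each from 250 bases before a transcription start to the 50 bases after it, were available for 8 of the 10 genes and searched for the CArG box, a motif of 10 bases that reads the same on both strands, so that a search of 1 strand covers both. A box was found in 4 of the 8 genes and in 4 of their 14 windows, against 454 of all 35116 windows (1.29%) and 438 of 27305 genes (1.6%). Those 4 windows are shown because they carry the motif by which SRF is known to bind, with the box in capitals. The TGFB1I1 window is chr16:31472955-31473254 on the plus strand, the CNN2 window chr19:1026358-1026657 on the plus strand, the ACTN1 window chr14:68977517-68977816 on the minus strand and the FLNA window chrX:154374585-154374884 on the minus strand.
TGFB1I1: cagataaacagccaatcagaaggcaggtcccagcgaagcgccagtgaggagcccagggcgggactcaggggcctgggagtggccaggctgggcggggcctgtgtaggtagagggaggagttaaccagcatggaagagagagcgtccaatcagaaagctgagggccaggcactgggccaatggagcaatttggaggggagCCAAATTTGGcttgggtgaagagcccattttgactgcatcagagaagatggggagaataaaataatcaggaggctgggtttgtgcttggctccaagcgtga
CNN2: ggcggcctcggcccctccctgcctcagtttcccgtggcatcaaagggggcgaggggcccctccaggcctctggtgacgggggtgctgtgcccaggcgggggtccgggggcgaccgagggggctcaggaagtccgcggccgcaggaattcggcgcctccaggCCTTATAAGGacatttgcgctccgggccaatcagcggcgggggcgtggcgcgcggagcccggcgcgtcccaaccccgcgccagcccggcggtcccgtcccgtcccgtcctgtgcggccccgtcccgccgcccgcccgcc
ACTN1: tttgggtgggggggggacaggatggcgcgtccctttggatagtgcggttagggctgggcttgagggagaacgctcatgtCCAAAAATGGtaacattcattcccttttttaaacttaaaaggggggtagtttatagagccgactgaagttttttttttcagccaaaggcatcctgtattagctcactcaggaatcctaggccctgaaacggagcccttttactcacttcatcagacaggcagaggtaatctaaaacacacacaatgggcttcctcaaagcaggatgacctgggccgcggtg
FLNA: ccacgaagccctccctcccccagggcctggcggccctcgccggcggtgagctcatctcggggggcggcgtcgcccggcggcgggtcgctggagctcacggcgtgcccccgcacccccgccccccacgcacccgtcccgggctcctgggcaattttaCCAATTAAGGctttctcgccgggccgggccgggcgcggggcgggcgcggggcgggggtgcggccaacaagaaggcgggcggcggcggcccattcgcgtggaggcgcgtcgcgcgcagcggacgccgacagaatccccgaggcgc

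The first base of the box lay 51 bases before the start in TGFB1I1, 89 in CNN2, 94 in FLNA and 171 in ACTN1. The box was seen in 1 of the 3 TGFB1I1 windows and in 1 of the 4 ACTN1 windows. No match was found in the windows of CNN1, VCL, TPM1 and TPM2, which says only that those letters are not in these windows. Among 19 other targets of SRF with a window, some of them not in the expression tables, 10 had a box in at least 1. TAGLN and MYL9 had no window in the table used.

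**Figure D1:**
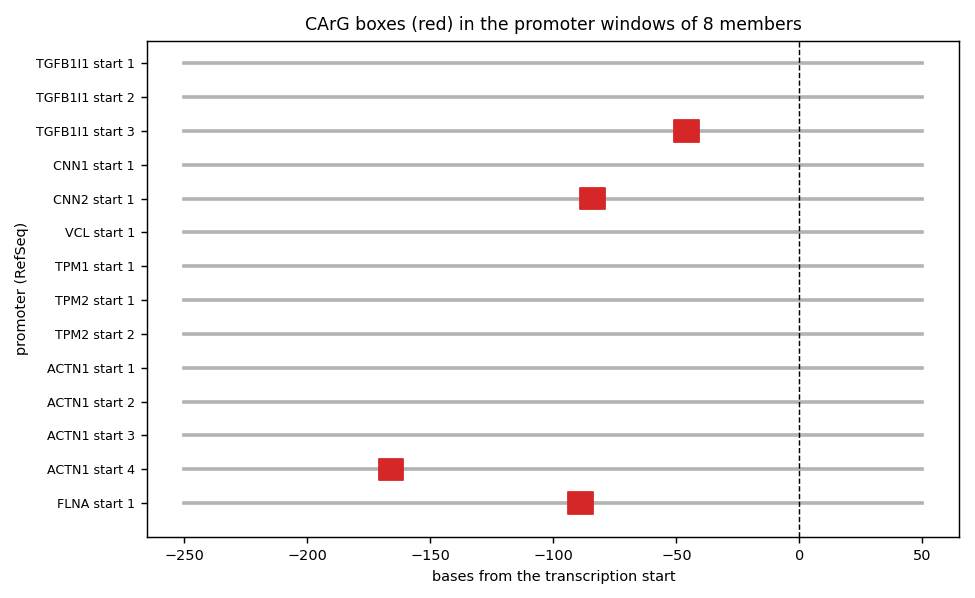
Position of the CArG box (red, to scale) in 14 RefSeq promoter windows (grey lines) of 8 genes, with the distance from the transcription start in bases on the x axis. The boxes of TGFB1I1, CNN2, FLNA and ACTN1 lie 51, 89, 94 and 171 bases before the start.

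Sequencing gave 21710821 to 26128173 gene reads per library in the SART1 table, 9959064 to 18086176 in the SARNP and DDX39A table and 8966609 to 17018483 in the TMEM259 and FIBP table. The knocked-down gene fell with every siRNA, with log2 changes from -1.05 (TMEM259 siRNA 6) to -3.55 (SARNP siRNA 9). FIBP was also lower with TMEM259 siRNA 6, at -0.48, and DDX39A was higher with SARNP siRNA 3, at 0.22. Of 10 markers of renal and carcinoma cells 8 are listed, with a summed level of 4565 to 8558 CPM (gene reads scaled to the library total) over the groups. In control cells most of that sum was VIM, at 4774 to 7044 CPM, while PAX8 was at 131 to 169 and PAX2 at 7.98 to 21.1. CA9 and NDUFA4L2 of these markers are not listed and were not analysed. Of 8 genes that define smooth muscle, ACTA2 and in 2 tables ACTG2 are listed, at a summed 1.48 to 14 CPM, and MYH11, DES, MYOCD and LMOD1 are not listed. Of 14 markers of fibroblasts, endothelium and leukocytes only COL1A1, PDGFRB and LUM are listed in any table, at a summed 3.29 to 8.61 CPM. In control cells the 9 genes spanned a wide range of levels per length. FLNA had 687 to 775 RPKM (CPM per kilobase of exon) over the 6 control libraries, TPM1 214 to 251, CNN2 126 to 148, ACTN1 107 to 120 and VCL 96.5 to 134. MYL9 had 30.6 to 49.8, TGFB1I1 5.78 to 10.83, TPM2 1.07 to 2.22 and TAGLN 0.974 to 2.245. The ranges of TPM2 and TAGLN overlap, as do those of VCL and CNN2 and of VCL and ACTN1. FLNA had the highest signal of all genes in every library of the SARNP and DDX39A table. In bulk RNA, fewer cells that express a gene and less RNA per cell cannot be told apart.

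Across the 10 siRNAs the genes did not move as a block. With DDX39A siRNA 4 all 9 were called higher, where called means an adjusted p below 0.05 (limma, Benjamini-Hochberg over all genes of the table), against 25.3% of all tested genes. With SARNP siRNA 3 they were mostly lower, with 7 called lower (21% of all genes) and 0 higher (20.3%), and with SARNP siRNA 9, 6 were lower (29.4%) and 1 higher (29%). The median log2 change of the 9 was 0.55 with DDX39A siRNA 4, -0.45 with SARNP siRNA 3 and -0.49 with SARNP siRNA 9, and the median of all genes was within 0.01 of 0 in each. With SART1 siRNA 6, 7 were higher (32.5%) and 2 lower (30.5%), and with SART1 siRNA 4, 2 were higher (29.5%) and 4 lower (28.2%). With TMEM259 siRNA 5, 7 were higher (10.83%) and 1 lower (11.98%), and with TMEM259 siRNA 6, 0 were higher (9.364%) and 3 lower (10.03%). FIBP siRNA 7 gave 1 higher (16.6%) and 6 lower (17.46%), FIBP siRNA 6 gave 0 higher (10.78%) and 3 lower (11.82%), and DDX39A siRNA 1 gave 0 higher (17.1%) and 2 lower (16.1%). These shares are the background of the calls and not a test, since the genes were chosen on this contrast.

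**Figure D2:**
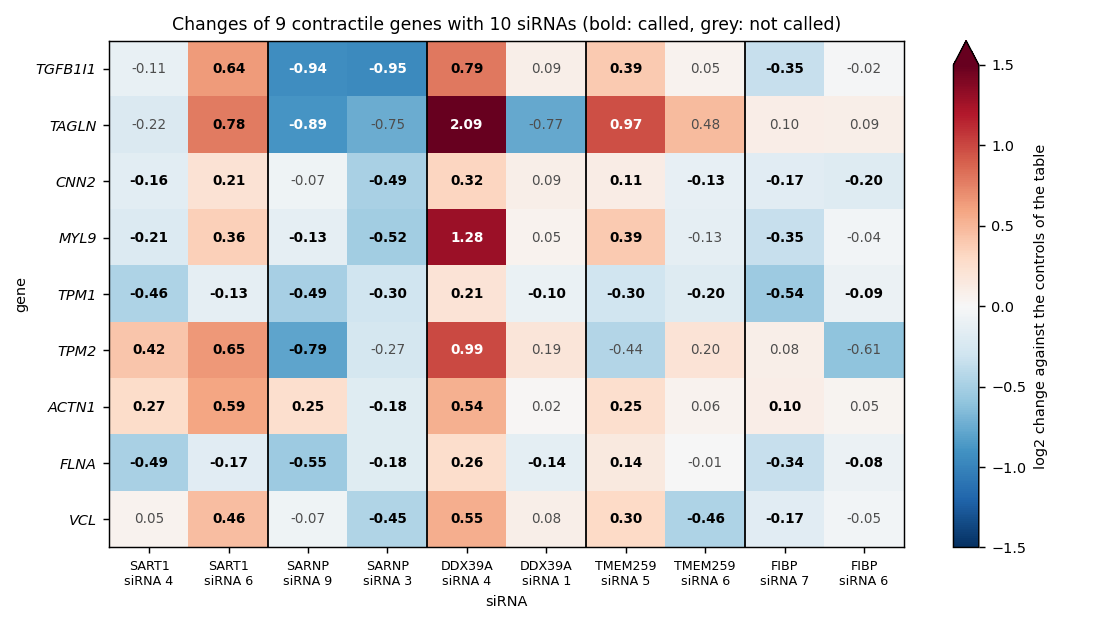
Log2 change of each gene (rows) with each siRNA against the controls of its table (columns, 2 libraries per group), on a colour scale that saturates below the highest value, with called changes in bold. DDX39A siRNA 4 is red in all 9 rows, TPM1 is blue in every other column, and the SARNP columns are blue except for ACTN1 with siRNA 9.

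The call depended on the siRNA for most genes. With both siRNAs of SART1, TPM2 and ACTN1 were higher (22.9% of all genes were) and TPM1 and FLNA lower (20%). With both of SARNP, TGFB1I1, TPM1, FLNA and MYL9 were lower (7.15%) and 0 were higher (7.17%). With both of DDX39A, 0 were higher (8.67%) and 0 lower (6.37%). With both of FIBP, CNN2, TPM1 and FLNA were lower (4.39%) and 0 higher (4.68%), and with both of TMEM259, TPM1 was lower (2.41%) and 0 were higher (2.56%). The 2 siRNAs of a target share their controls, so their calls are not independent.

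TAGLN encodes transgelin (SM22), an actin-binding protein of smooth muscle, and had the widest range of changes, from -0.89 with SARNP siRNA 9 to 2.09 with DDX39A siRNA 4 on the log2 scale. TAGLN was at a normalized signal of 112 and 93.9 with SART1 siRNA 4 and 218 and 195 with SART1 siRNA 6, against 124 and 115 in the controls. TAGLN had 14.9 and 18.9 with SARNP siRNA 9 and 21.9 and 15.76 with SARNP siRNA 3, against 29.7 and 34.2 in their controls. TAGLN had 140.0 and 139 with DDX39A siRNA 4 and 10.2 and 32.1 with DDX39A siRNA 1, against the same controls. Both libraries of DDX39A siRNA 4 were far above their controls, all 4 SARNP libraries were below both controls, and the 2 libraries of DDX39A siRNA 1, at 8 and 28 reads, stood far from each other. TAGLN had 114 and 79 with TMEM259 siRNA 5 and 73.9 and 60.9 with TMEM259 siRNA 6, against 46.6 and 49.2 in their controls. TAGLN had 57.9 and 45.7 with FIBP siRNA 7 and 46.8 and 55.4 with FIBP siRNA 6, against the same controls. All 4 TMEM259 libraries were above both controls, and the FIBP libraries overlapped them. The log2 change was 2.09 (SE 0.32) with DDX39A siRNA 4, 0.97 (SE 0.20) with TMEM259 siRNA 5 and 0.78 (SE 0.13) with SART1 siRNA 6, all called higher. It was -0.89 (SE 0.32) with SARNP siRNA 9, called lower, and -0.75 (SE 0.32) with SARNP siRNA 3 and -0.77 (SE 0.32) with DDX39A siRNA 1, neither called. The call with SARNP siRNA 9 was lost without its replicate 1 (-0.73) or control replicate 2 (-0.79). Without replicate 2 of DDX39A siRNA 1, which held the higher value, the change with that siRNA was -1.56 and called, and without replicate 1 of SARNP siRNA 3 it was -0.97 and called. With only the groups compared both changes were called, and that with SARNP siRNA 3 also with a pseudocount of 5 (-0.64) and after quantile normalization (-0.83). Of the 42-base words in TAGLN exons, 9.88% also occur in other genes, most in the overlapping PCSK7, and the strand setting of the counting is not given in the sources used here.

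CNN2 encodes calponin 2, an actin-binding protein of the calponin family found outside muscle. CNN2 was at a normalized signal of 5873 and 5818 with SART1 siRNA 4 and 7727 and 7394 with SART1 siRNA 6, against 6485 and 6543 in the controls. CNN2 had 4052 and 3832 with SARNP siRNA 9 and 2874 and 3010 with SARNP siRNA 3, against 4221 and 4041 in their controls. CNN2 had 5209 and 5138 with DDX39A siRNA 4 and 4467 and 4329 with DDX39A siRNA 1, against the same controls. SART1 siRNA 4 lay below and siRNA 6 above the controls, SARNP siRNA 3 was lowest of its table, and SARNP siRNA 9 overlapped the controls. CNN2 had 4167 and 3972 with TMEM259 siRNA 5 and 3442 and 3473 with TMEM259 siRNA 6, against 3764 and 3791 in their controls. CNN2 had 3362 and 3350 with FIBP siRNA 7 and 3258 and 3334 with FIBP siRNA 6, against the same controls. The TMEM259 siRNAs stood on opposite sides of the controls, and all 4 FIBP libraries were below them. Log2 changes were -0.49 (SE 0.04) with SARNP siRNA 3, -0.17 (SE 0.04) and -0.20 (SE 0.04) with FIBP siRNA 7 and 6, and 0.32 (SE 0.04) with DDX39A siRNA 4. They were -0.16 (SE 0.03) with SART1 siRNA 4 and 0.21 (SE 0.03) with SART1 siRNA 6, of which quantile normalization ended the second call (0.05). With TMEM259 siRNA 5 the change was 0.11 (SE 0.04), a call lost without control replicate 1 (0.10), control replicate 2 (0.11) or its own replicate 1 (0.07), with DESeq2 and with the replicate block. With TMEM259 siRNA 6 it was -0.13 (SE 0.04), a call lost without any 1 of its 4 libraries (-0.13 to -0.12). Of CNN2 words 13% are shared with other genes.

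MYL9 encodes a regulatory light chain of myosin II, whose phosphorylation turns on contraction of smooth muscle and non-muscle myosin. MYL9 was at a normalized signal of 2139 and 2206 with SART1 siRNA 4 and 3303 and 3149 with SART1 siRNA 6, against 2459 and 2562 in the controls. MYL9 had 1039 and 960.2 with SARNP siRNA 9 and 725 and 799.7 with SARNP siRNA 3, against 1096 and 1095 in their controls. MYL9 had 2722 and 2598 with DDX39A siRNA 4 and 1142 and 1128 with DDX39A siRNA 1, against the same controls. Both DDX39A siRNA 4 libraries were far above the controls, those of DDX39A siRNA 1 just above them, and all 4 SARNP libraries below them. MYL9 had 2190 and 2135 with TMEM259 siRNA 5 and 1467 and 1542 with TMEM259 siRNA 6, against 1545 and 1753 in their controls. MYL9 had 1355 and 1237 with FIBP siRNA 7 and 1573 and 1620 with FIBP siRNA 6, against the same controls. TMEM259 siRNA 5 was above the controls and FIBP siRNA 7 below them. The log2 change was 1.28 (SE 0.06) with DDX39A siRNA 4, 0.39 (SE 0.05) with TMEM259 siRNA 5 and 0.36 (SE 0.04) with SART1 siRNA 6, all called higher. It was -0.52 (SE 0.06) with SARNP siRNA 3, -0.35 (SE 0.05) with FIBP siRNA 7 and -0.21 (SE 0.04) with SART1 siRNA 4, all called lower. With SARNP siRNA 9 it was -0.13 (SE 0.06), a call lost with edgeR, DESeq2 and quantile normalization, and without control replicate 1 or 2 (-0.13 each) or its own replicate 2 (-0.08). The uncalled change with TMEM259 siRNA 6 was -0.13 (SE 0.05), and it was called without control replicate 1 (-0.22) or when only the compared groups were fitted.

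TPM1 and TPM2 encode tropomyosins, which lie along actin filaments and control the access of myosin. TPM1 was called with all 10 siRNAs, lower with 9 and higher with DDX39A siRNA 4. TPM1 was at a normalized signal of 34663 and 34111 with SART1 siRNA 4 and 43323 and 43273 with SART1 siRNA 6, against 47124 and 47749 in the controls. TPM1 had 16000 and 16409 with SARNP siRNA 9 and 18519 and 18448 with SARNP siRNA 3, against 22708 and 22874 in their controls. TPM1 had 26020 and 26544 with DDX39A siRNA 4 and 21273 and 21141 with DDX39A siRNA 1, against the same controls. Of the 20 knockdown libraries 18 lay below both controls of their table, and the 2 above were those of DDX39A siRNA 4. TPM1 had 21122 and 20541 with TMEM259 siRNA 5 and 21680 and 23034 with TMEM259 siRNA 6, against 25080 and 26100 in their controls. TPM1 had 17983 and 17225 with FIBP siRNA 7 and 24269 and 23858 with FIBP siRNA 6, against the same controls. The lower changes ran from -0.09 to -0.54. The largest were -0.54 (SE 0.03) with FIBP siRNA 7, -0.49 (SE 0.04) with SARNP siRNA 9 and -0.46 (SE 0.03) with SART1 siRNA 4. The smallest were -0.09 (SE 0.03) with FIBP siRNA 6 and -0.10 (SE 0.04) with DDX39A siRNA 1. The FIBP siRNA 6 call was lost with DESeq2, with the replicate block, and without control replicate 2 (-0.06), its own replicate 1 (-0.10) or its own replicate 2 (-0.08). The DDX39A siRNA 1 call was lost without any 1 of its 4 libraries (-0.11 to -0.10) and after quantile normalization (-0.05). DDX39A siRNA 4 gave 0.21 (SE 0.04), which quantile normalization reduced to an uncalled 0.03. Of TPM1 words 21.1% also occur in other genes, most in its antisense partner TPM1-AS, whose reads could not be told apart where strand was not counted.

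TPM2 was far less abundant, at 12 to 142 reads per library, and noisier. TPM2 was at a normalized signal of 113 and 111 with SART1 siRNA 4 and 136 and 127 with SART1 siRNA 6, against 83.8 and 82.9 in the controls. TPM2 had 17.6 and 11.9 with SARNP siRNA 9 and 18.78 and 24.2 with SARNP siRNA 3, against 22.3 and 29.9 in their controls. TPM2 had 49.9 and 54.8 with DDX39A siRNA 4 and 29.3 and 29.8 with DDX39A siRNA 1, against the same controls. SART1 siRNA 4 and 6 and DDX39A siRNA 4 lay above their controls, and SARNP siRNA 9 below. TPM2 had 30.3 and 18.9 with TMEM259 siRNA 5 and 33.9 and 42.4 with TMEM259 siRNA 6, against 31.8 and 34 in their controls. TPM2 had 40.0 and 30.4 with FIBP siRNA 7 and 18.1 and 24.9 with FIBP siRNA 6, against the same controls. TMEM259 siRNA 5 and FIBP siRNA 6 were below both controls, but neither was called. The log2 changes called were 0.99 (SE 0.28) with DDX39A siRNA 4, 0.65 (SE 0.14) with SART1 siRNA 6, 0.42 (SE 0.14) with SART1 siRNA 4 and -0.79 (SE 0.28) with SARNP siRNA 9. Of these, DDX39A siRNA 4 was not called without control replicate 1 (0.79), and SART1 siRNA 4 was not called with DESeq2 or without control replicate 2 or its own replicate 1 (0.41 each). SARNP siRNA 9 was not called with DESeq2, without control replicate 2 (-0.59) or without its own replicate 2 (-0.53).

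ACTN1 encodes alpha-actinin 1, which bundles actin filaments and anchors them at adhesions, and it was higher with 6 siRNAs and lower with 1. ACTN1 was at a normalized signal of 12365 and 12593 with SART1 siRNA 4 and 15975 and 15193 with SART1 siRNA 6, against 10350 and 10312 in the controls. ACTN1 had 7432 and 7479 with SARNP siRNA 9 and 5597 and 5513 with SARNP siRNA 3, against 6346 and 6227 in their controls. ACTN1 had 9268 and 9000 with DDX39A siRNA 4 and 6374 and 6343 with DDX39A siRNA 1, against the same controls. Both SART1 siRNAs and DDX39A siRNA 4 were above the controls, and the SARNP siRNAs stood on opposite sides of them. ACTN1 had 6861 and 6619 with TMEM259 siRNA 5 and 5719 and 6100 with TMEM259 siRNA 6, against 5508 and 5861 in their controls. ACTN1 had 6244 and 5922 with FIBP siRNA 7 and 5820 and 5914 with FIBP siRNA 6, against the same controls. TMEM259 siRNA 5 and FIBP siRNA 7 were above both controls. The log2 change was 0.59 (SE 0.03) with SART1 siRNA 6, 0.54 (SE 0.04) with DDX39A siRNA 4 and 0.27 (SE 0.03) with SART1 siRNA 4. It was 0.25 (SE 0.04) with SARNP siRNA 9, 0.25 (SE 0.04) with TMEM259 siRNA 5 and -0.18 (SE 0.04) with SARNP siRNA 3. The smallest call, 0.10 (SE 0.04) with FIBP siRNA 7, was lost with edgeR, DESeq2 and the replicate block, and without control replicate 1 (0.05) or its own replicate 1 (0.06).

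FLNA encodes filamin A, which crosslinks actin into networks and binds integrin tails, and it was lower with 7 siRNAs and higher with 2. FLNA was at a normalized signal of 98887 and 96463 with SART1 siRNA 4 and 125488 and 118014 with SART1 siRNA 6, against 135028 and 138761 in the controls. FLNA had 52874 and 51370 with SARNP siRNA 9 and 65565 and 69038 with SARNP siRNA 3, against 78463 and 74161 in their controls. FLNA had 93743 and 89617 with DDX39A siRNA 4 and 69704 and 68573 with DDX39A siRNA 1, against the same controls. All SART1 and SARNP libraries were below their controls, and DDX39A siRNA 4 was above them while DDX39A siRNA 1 was below. FLNA had 87920 and 90871 with TMEM259 siRNA 5 and 79695 and 81631 with TMEM259 siRNA 6, against 79844 and 82294 in their controls. FLNA had 67307 and 60689 with FIBP siRNA 7 and 75361 and 77551 with FIBP siRNA 6, against the same controls. TMEM259 siRNA 5 was above the controls and all 4 FIBP libraries below them. The log2 change was -0.55 (SE 0.04) with SARNP siRNA 9, -0.49 (SE 0.03) with SART1 siRNA 4, -0.34 (SE 0.03) with FIBP siRNA 7, -0.18 (SE 0.04) with SARNP siRNA 3 and -0.17 (SE 0.03) with SART1 siRNA 6. It was 0.26 (SE 0.04) with DDX39A siRNA 4 and 0.14 (SE 0.03) with TMEM259 siRNA 5. The change with DDX39A siRNA 1, -0.14 (SE 0.04), was not called without control replicate 1 (-0.10) or its own replicate 2 (-0.13), and that with SARNP siRNA 3 was not called without control replicate 1 (-0.14). With FIBP siRNA 6 the change of -0.08 (SE 0.03) was lost without any 1 of its 4 libraries (-0.11 to -0.06), and with edgeR, DESeq2 and the replicate block. Quantile normalization gives the top gene of every library the same value, and FLNA was that gene throughout the SARNP and DDX39A table, so all its changes there became 0. In the table of FIBP and TMEM259, where FLNA ranked 2 to 4, it left 0, not called, with FIBP siRNA 6 and 0.12, not called, with TMEM259 siRNA 5.

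VCL encodes vinculin, which ties talin and actin together at focal adhesions under tension. VCL was at a normalized signal of 15427 and 15610 with SART1 siRNA 4 and 20694 and 20495 with SART1 siRNA 6, against 14979 and 14961 in the controls. VCL had 10646 and 10886 with SARNP siRNA 9 and 8316 and 8224 with SARNP siRNA 3, against 11247 and 11336 in their controls. VCL had 16576 and 16411 with DDX39A siRNA 4 and 11690 and 12264 with DDX39A siRNA 1, against the same controls. DDX39A siRNA 4 and SART1 siRNA 6 stood well above the controls and SARNP siRNA 3 well below. VCL had 10225 and 9919 with TMEM259 siRNA 5 and 5698 and 6246 with TMEM259 siRNA 6, against 8251 and 8158 in their controls. VCL had 7521 and 7094 with FIBP siRNA 7 and 8085 and 7803 with FIBP siRNA 6, against the same controls. The TMEM259 siRNAs lay on opposite sides of the controls. The log2 change was 0.55 (SE 0.04) with DDX39A siRNA 4, 0.46 (SE 0.03) with SART1 siRNA 6 and 0.30 (SE 0.04) with TMEM259 siRNA 5, all called higher. It was -0.46 (SE 0.04) with TMEM259 siRNA 6, -0.45 (SE 0.04) with SARNP siRNA 3 and -0.17 (SE 0.04) with FIBP siRNA 7, all called lower. All 20 knockdown libraries lay outside the range of their controls, yet the changes with SART1 siRNA 4, SARNP siRNA 9, DDX39A siRNA 1 and FIBP siRNA 6 were not called, at -0.07 to 0.08. After quantile normalization those with SARNP siRNA 9 (0.09) and DDX39A siRNA 1 (0.13) were called higher, the first with its sign turned round. Of VCL words 10.6% are shared, most with the overlapping AP3M1.

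TGFB1I1 encodes Hic-5, a paxillin relative at focal adhesions that also acts as a coregulator of nuclear receptors. TGFB1I1 was at a normalized signal of 237 and 281 with SART1 siRNA 4 and 444 and 425 with SART1 siRNA 6, against 263 and 294 in the controls. TGFB1I1 had 157 and 121 with SARNP siRNA 9 and 130.4 and 143 with SARNP siRNA 3, against 259 and 271 in their controls. TGFB1I1 had 469 and 449 with DDX39A siRNA 4 and 307 and 258 with DDX39A siRNA 1, against the same controls. All 4 SARNP libraries were below both controls, with no overlap, and both of DDX39A siRNA 4 were above. TGFB1I1 had 277 and 302 with TMEM259 siRNA 5 and 218 and 239 with TMEM259 siRNA 6, against 224 and 216 in their controls. TGFB1I1 had 180.5 and 164 with FIBP siRNA 7 and 216 and 217 with FIBP siRNA 6, against the same controls. SART1 siRNA 6 and TMEM259 siRNA 5 lay above the controls and FIBP siRNA 7 below, and the libraries of SART1 siRNA 4, DDX39A siRNA 1, TMEM259 siRNA 6 and FIBP siRNA 6 overlapped the range of theirs. The log2 change was -0.94 (SE 0.11) with SARNP siRNA 9 and -0.95 (SE 0.11) with SARNP siRNA 3. It was 0.79 (SE 0.11) with DDX39A siRNA 4, 0.64 (SE 0.09) with SART1 siRNA 6 and 0.39 (SE 0.10) with TMEM259 siRNA 5. The last call was lost without replicate 2 of that siRNA (0.33). With FIBP siRNA 7 it was -0.35 (SE 0.10), a call lost with DESeq2 and without control replicate 1 (-0.33) or its own replicate 2 (-0.28).

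**Figure D3:**
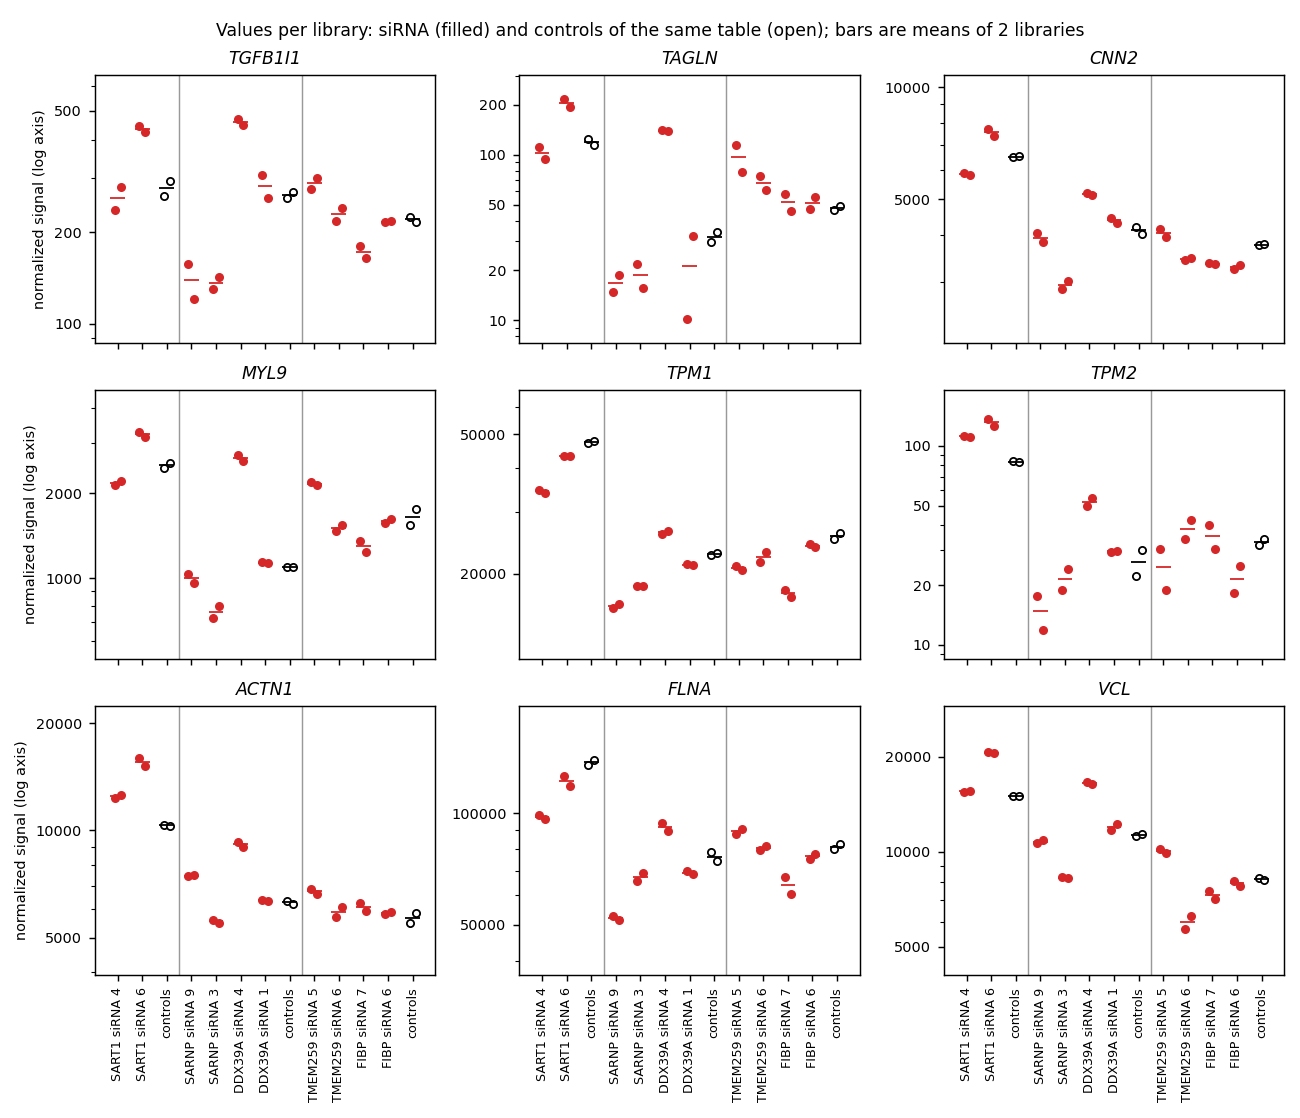
Normalized signal of each gene in every library (log axis), with knockdown libraries as filled red points and controls as open black points, bars at the mean of 2 libraries and grey lines between the separately normalized tables. TAGLN in DDX39A siRNA 4 stands at 140.0 and 138.6, above the 29.7 and 34.2 of its controls, and TPM1 lies below its controls in all groups but that one.

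The contrast of 1 siRNA with the other of the same target leaves out the control libraries that were used to choose the genes, although the knockdown libraries are the same. In the fit each such difference equals that between the 2 changes against controls, which were known when the genes were chosen. Adjusted p-values of these contrasts are therefore a description too, and not independent tests. All 9 genes were higher with DDX39A siRNA 4 than with siRNA 1, against 25.6% of all genes, and 0 were lower (25%). TAGLN differed by 2.87 (SE 0.32, adjusted p = 1.1e-09), MYL9 by 1.23 (SE 0.06, adjusted p = 4.4e-20) and TGFB1I1 by 0.70 (SE 0.11, adjusted p = 1.8e-06), all by limma. The smallest was that of CNN2, 0.23 (SE 0.04, adjusted p = 3e-05). DDX39A itself had a log2 change of -2.59 with siRNA 4 and -2.84 with siRNA 1. The TPM2 difference, 0.80 (SE 0.28, adjusted p = 0.017), was lost with DESeq2 and without siRNA 1 replicate 1 (0.79), siRNA 1 replicate 2 (0.82) or siRNA 4 replicate 2 (0.74). The FLNA and TPM1 differences were lost after quantile normalization (0 and 0.07).

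With SART1 siRNA 4, 8 genes were lower than with siRNA 6 (19.4% of all genes) and 0 higher (19.1%). TAGLN differed by -0.998 (SE 0.13, adjusted p = 1.7e-06), TGFB1I1 by -0.75 (SE 0.09, adjusted p = 9.4e-07) and MYL9 by -0.57 (SE 0.04, adjusted p = 1.5e-10). TPM2 was not called at -0.23 (SE 0.14, adjusted p = 0.2), with an interval of -0.52 to 0.06. With TMEM259 siRNA 5, 6 genes were higher than with siRNA 6 (15.59%) and 1 lower (16.49%). VCL differed most, by 0.76 (SE 0.04, adjusted p = 4.4e-20), and MYL9 by 0.52 (SE 0.05, adjusted p = 2.1e-10). TPM1 was the gene lower with siRNA 5, at -0.10 (SE 0.03, adjusted p = 0.012), and this was lost after quantile normalization (-0.07) and without siRNA 5 replicate 2 (-0.08) or siRNA 6 replicate 2 (-0.06). The TGFB1I1 difference of 0.34 (SE 0.10, adjusted p = 0.0094) was lost with DESeq2 and without siRNA 5 replicate 2 (0.28) or siRNA 6 replicate 1 (0.27). The FLNA difference, 0.15 (SE 0.03, adjusted p = 0.00022), was lost after quantile normalization (0.12). TAGLN was not called at 0.49 (SE 0.20, adjusted p = 0.053), but was with edgeR, with a pseudocount of 5, with a minimum mean of 50, in a fit of the compared groups only, and without siRNA 5 replicate 2 (0.76). TPM2, at -0.64 (SE 0.28, adjusted p = 0.071), was called without siRNA 5 replicate 1 (-0.97).

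**Figure D4:**
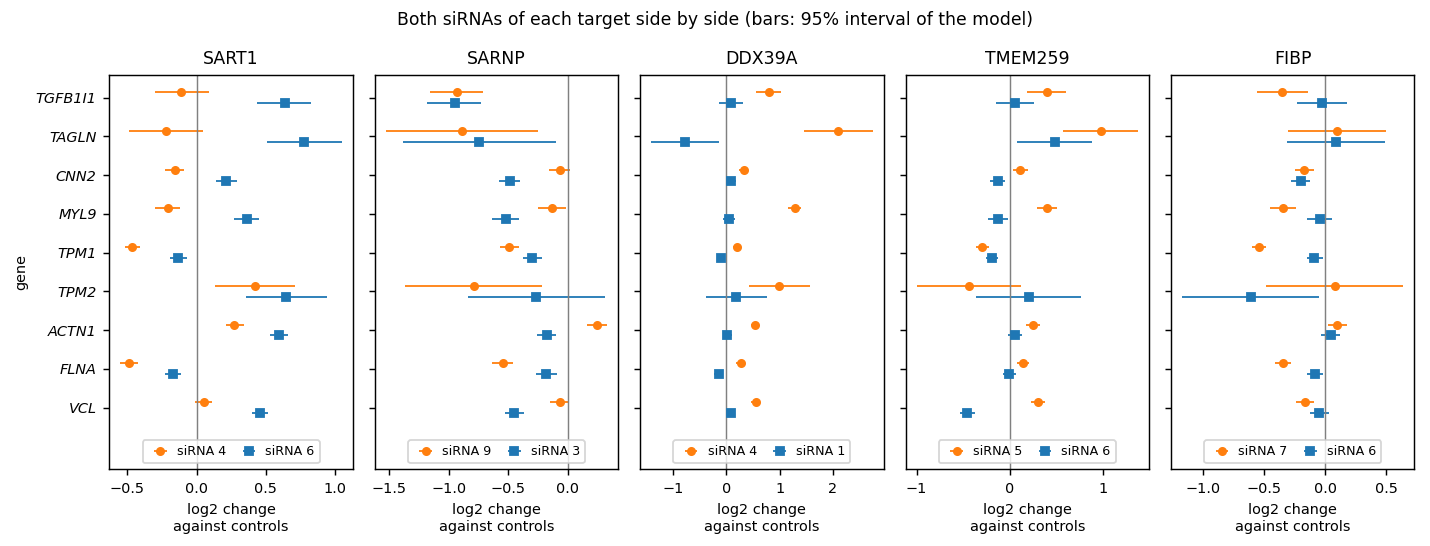
Log2 change of each gene against controls with the 2 siRNAs of each target (circle and square, 95% interval of the model, x axes differ between panels). In the DDX39A panel siRNA 4 lies right of siRNA 1 in all 9 rows, and the 2 siRNAs lie close together for TAGLN in the FIBP panel and for TGFB1I1 in the SARNP panel.

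The SARNP siRNAs differed in both directions. Against siRNA 3, 4 genes were higher with siRNA 9 (31.7% of all genes) and 2 lower (32.5%). ACTN1 differed by 0.42 (SE 0.04, adjusted p = 1e-11), CNN2 by 0.42 (SE 0.04, adjusted p = 1.4e-10), MYL9 by 0.39 (SE 0.06, adjusted p = 1.8e-07) and VCL by 0.38 (SE 0.04, adjusted p = 1.3e-10). FLNA was lower, at -0.37 (SE 0.04, adjusted p = 1.4e-09), which quantile normalization set to 0, and so was TPM1, at -0.19 (SE 0.04, adjusted p = 5.6e-05). TGFB1I1 was not called, with a difference of 0.02 and an interval of -0.21 to 0.24, and TAGLN had an interval of -0.79 to 0.50. TPM2 was called without siRNA 9 replicate 1 (-0.79). With FIBP siRNA 7, 5 genes were lower than with siRNA 6 (17.73%) and 1 higher (17.93%). TPM1 differed by -0.45 (SE 0.03, adjusted p = 1e-15), MYL9 by -0.30 (SE 0.05, adjusted p = 1.4e-05) and FLNA by -0.26 (SE 0.03, adjusted p = 5e-09). TGFB1I1, -0.33 (SE 0.10, adjusted p = 0.011), was lost with DESeq2 and without siRNA 7 replicate 2 (-0.26). VCL, -0.12 (SE 0.04, adjusted p = 0.011), was lost without siRNA 6 replicate 1 (-0.10) or siRNA 7 replicate 2 (-0.08). TPM2 was the gene higher with siRNA 7, 0.69 (SE 0.28, adjusted p = 0.048), and it was lost with edgeR, DESeq2, the replicate block and a fit of the compared groups only, and without siRNA 6 replicate 1 (0.47) or siRNA 7 replicate 1 (0.50).

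Targets of the same table were compared through the mean of both siRNAs. These differences also follow from the changes against controls, so they are a description and not independent tests. All 9 genes were lower after SARNP than after DDX39A knockdown (27.5% of all genes were, and 26.1% were higher), with a median difference of -0.57 against 0.00 over all genes. TAGLN differed by -1.48 (SE 0.22, adjusted p = 6.3e-07), TGFB1I1 by -1.38 (SE 0.08, adjusted p = 1.6e-17), TPM2 by -1.12 (SE 0.20, adjusted p = 1.1e-05) and MYL9 by -0.99 (SE 0.04, adjusted p = 4.1e-22). VCL, CNN2, TPM1, FLNA and ACTN1 differed by -0.57, -0.49, -0.45, -0.43 and -0.24, all called, but FLNA was set to 0 by quantile normalization. The error of this contrast comes from libraries within an siRNA and not from how far its siRNAs lie apart. The 2 DDX39A siRNAs differed by more than the 2 targets did for TAGLN (2.87), MYL9 (1.23) and ACTN1 (0.52), and by less for the other genes. The 2 SARNP siRNAs differed by more than the targets for ACTN1 (0.42) only. Against controls TAGLN was at -0.77 with DDX39A siRNA 1, and at -0.89 and -0.75 with SARNP siRNA 9 and 3. ACTN1 was at 0.02 with DDX39A siRNA 1 and at 0.25 with SARNP siRNA 9. After TMEM259 knockdown 7 genes were higher than after FIBP knockdown (18.81%) and 0 lower (18.29%), with a median difference of 0.17. TAGLN differed by 0.63 (SE 0.14, adjusted p = 0.00036), TGFB1I1 by 0.41 (SE 0.07, adjusted p = 1.4e-05), MYL9 by 0.33 (SE 0.04, adjusted p = 2.5e-09) and FLNA by 0.28 (SE 0.02, adjusted p = 4.3e-14). CNN2 differed by 0.17 (SE 0.03, adjusted p = 2.6e-06). ACTN1 (0.08) was lost without FIBP siRNA 6 replicate 1, FIBP siRNA 7 replicate 2, TMEM259 siRNA 5 replicate 1 or TMEM259 siRNA 6 replicate 2 (0.06 to 0.07). TPM1 (0.07) was lost without FIBP siRNA 6 replicate 2, FIBP siRNA 7 replicate 2, TMEM259 siRNA 5 replicate 1 or TMEM259 siRNA 6 replicate 2 (0.05 to 0.06). TPM2 and VCL were not called, with intervals of -0.25 to 0.54 and -0.03 to 0.08. The same limit of the error holds for this pair of targets. Among the genes called, the TMEM259 siRNAs differed by more than the targets for MYL9 (0.52), CNN2 (0.23), ACTN1 (0.19) and TPM1 (-0.10). They differed by less for TAGLN (0.49), TGFB1I1 (0.34) and FLNA (0.15). VCL differed by 0.76 between these siRNAs. Among the genes called, the FIBP siRNAs differed by more than the targets for TPM1 (-0.45) only, and by nearly as much for FLNA (-0.26) and MYL9 (-0.30).

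Over the 26 libraries, with each gene centred on its table's mean, MYL9 was most like the other genes, with a median Pearson r of 0.82, and TPM2 least, at 0.47. The highest pairs were MYL9 with TGFB1I1 (r = 0.88), with CNN2 and VCL (0.87 each) and with TAGLN (0.86), CNN2 with VCL (0.86) and TPM1 with FLNA (0.86). The lowest pairs were ACTN1 with TPM1 (0.11) and with FLNA (0.17). Within single tables some signs differed: ACTN1 with TPM1 ran from -0.42 to 0.43, and TPM2 with VCL from -0.53 to 0.83, with MYL9 from -0.41 to 0.83 and with FLNA from -0.47 to 0.90. The medians with all other genes lay between -0.02 and 0.01. These values are a description, since the points share library, depth and siRNA. Among 11376 other genes measured in all tables, those most like TAGLN were CALD1, which encodes the actin-binding caldesmon (r = 0.90), LCP1, which encodes the actin bundler L-plastin (0.90), and MAP1B, a microtubule-associated protein (0.89). For MYL9 they were LCP1 (0.93), ALDH1B1, a mitochondrial aldehyde dehydrogenase (0.93), and MAP1B (0.91). For TPM2 they were MYADM (0.87), YKT6, a vesicle fusion protein (0.83), and NUTF2, a nuclear transport factor (0.82).

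**Figure D5:**
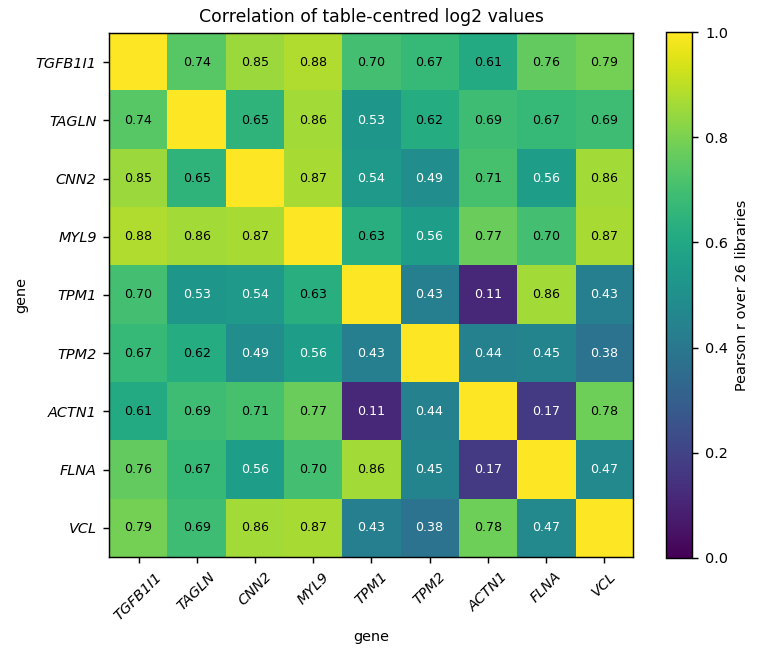
Pearson r between the 9 genes over 26 libraries, from log2 values centred on the mean of their table. MYL9, TGFB1I1, CNN2 and VCL hold the highest values, TPM1 pairs with FLNA at 0.86, and ACTN1 with TPM1 stands at 0.11.

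Among the other genes of the pathway, SRF itself had a log2 change of 0.51 with SART1 siRNA 6 and 0.22 with TMEM259 siRNA 6, both called higher, and of -0.45 with SARNP siRNA 3 and -0.26 with FIBP siRNA 6, both called lower. It was not called with DDX39A siRNA 4 (0.12) or siRNA 1 (0.13). SRF and MKL1 are named for their place in the pathway, after their values were seen. MKL1, the MRTF-A gene, was called higher with SART1 siRNA 6 (0.27) and DDX39A siRNA 1 (0.23), and MKL2, the MRTF-B gene, was lower with both SART1 siRNAs (-0.35 and -0.40). Of 6 tested genes for SRF and its cofactors, ELK1 and ELK3 rose and MKL2 fell with both SART1 siRNAs, where 22.9% of all genes were called higher and 20% lower by both. ELK4 fell with both of DDX39A (6.37% of all genes), ELK1 rose with both of FIBP (4.68%), and 0 changed with both of SARNP or of TMEM259. The median of these 6 lay between -0.12 and 0.22 over the siRNAs, with all genes within 0.01 of 0.

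Of the other listed targets of actin signalling through SRF, 7 of 18 rose and 0 fell with both DDX39A siRNAs, where 8.67% of all genes were called higher and 6.37% lower by both. With both SARNP siRNAs 0 of 18 rose and 7 fell, where 7.17% of all genes were higher and 7.15% lower. FILIP1L rose by 0.78 with DDX39A siRNA 4 and by 1.30 with siRNA 1, PDLIM7 by 0.81 and 0.55, PDLIM5 by 0.66 and 0.37 and ZYX, which encodes the adhesion protein zyxin, by 0.56 and 0.23, in the same order. With SARNP siRNA 9 and 3, NEXN, an actin-binding protein, fell by 0.86 and by 0.77, FHL1 fell by 0.30 and by 0.37, and ACTG1, cytoplasmic gamma-actin, fell by 0.37 and by 0.25. CYR61, a secreted matrix protein, fell by 0.23 with SARNP siRNA 9 and by 1.06 with siRNA 3. But CYR61 rose by 0.13 and 0.35 with DDX39A siRNA 4 and 1, and by 0.21 and 0.69 with SART1 siRNA 4 and 6. The rise of FILIP1L was not particular to DDX39A. It was 0.97 and 0.94 with SART1 siRNA 4 and 6, and 1.29 and 0.90 with TMEM259 siRNA 5 and 6. Both SART1 siRNAs gave 4 of 19 higher (22.9% of all genes) and 2 lower (20%). Both TMEM259 siRNAs gave 3 of 18 higher (2.56%) and 1 lower (2.41%), and both FIBP siRNAs 0 of 18 higher (4.68%) and 3 lower (4.39%), among them MYLK, the myosin light chain kinase (-0.43 and -0.51 with siRNA 7 and 6). The list's median was 0.35 with DDX39A siRNA 4, 0.12 with DDX39A siRNA 1, -0.23 with SARNP siRNA 9 and -0.22 with SARNP siRNA 3.

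ACTA2, the actin of smooth muscle, which is in that list and also a smooth muscle marker, was also higher with DDX39A siRNA 4. It had 180 ± 11.2 with DDX39A siRNA 4 and 27.7 ± 1.36 with siRNA 1, against 25.6 ± 3.13 in controls (normalized signal, SD, n = 2 each), a log2 change of 2.78 with siRNA 4. That is 14 CPM with siRNA 4 against 2.01 CPM in controls. ACTA2 was also called lower with FIBP siRNA 7 (-1.17), at a low 9.71 ± 2.04 against 22.9 ± 0.976 in the controls of that table. The other defining genes of smooth muscle named above are not listed in that table, and the part of such cells in the result was not tested.

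Serum-signalled targets of SRF were few in these tables. Of 5 tested in the SART1 table FOSB and JUNB rose (22.9% of all genes) and MCL1 fell (20%) with both siRNAs. FOSB was at only 3.93 ± 2.8 in the SART1 controls (normalized signal, SD, n = 2), below the minimum mean set for the fits. Its log2 changes, 3.28 with SART1 siRNA 4 and 1.14 with SART1 siRNA 6, therefore start from a very low signal. Among 6 tested, MCL1 fell with both siRNAs of DDX39A (6.37%) and JUNB with both of SARNP (7.15%). Of 3 tested, 0 changed with both of TMEM259 or FIBP. Of the paralogs of the genes described here, 5 of 12 fell (7.15% of all genes) and 0 rose (7.17%) with both SARNP siRNAs, among them TPM4 (-0.48 and -0.42 with siRNA 9 and 3), TAGLN2 (-0.33 and -0.22) and ACTN4 (-0.37 and -0.15). Without control replicate 1 or replicate 2, 3 fell. With both SART1 siRNAs 6 of 11 rose (22.9%) and FLNC fell (20%), and the risers were LPXN, CNN3, MYL12A, MYL12B, TAGLN2 and TPM4. Both siRNAs of DDX39A gave only MYL12A higher of 12 (8.67%), those of FIBP gave LPXN and FLNC higher of 11 (4.68%), and those of TMEM259 gave FLNC higher (2.56%) and PXN lower (2.41%) of 11. The paralog median ran from -0.16 with SARNP siRNA 3 to 0.21 with SART1 siRNA 6.

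Of 16 focal adhesion adaptors, 7 rose (22.9% of all genes) and 1 fell (20%) with both siRNAs of SART1. With both of SARNP 1 rose (7.17%) and 3 fell (7.15%), and with both of DDX39A 5 rose (8.67%) and 0 fell (6.37%). With both of TMEM259 1 rose (2.56%) and 1 fell (2.41%), and with both of FIBP 2 rose (4.68%) and 2 fell (4.39%). FERMT2, the integrin activator kindlin-2, rose with both siRNAs of SART1, DDX39A, TMEM259 and FIBP, by 0.18 to 0.78. The siRNAs of 1 table share their controls, so calls in the 2 targets of a table are not independent.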

How the data were processed

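Poly(A) RNA from 26 libraries was sequenced in pairs of 42-base reads with a directional kit, per the labels' protocols. The deposited values are the authors' normalized signal per gene, whose steps are those of whole reads scaled by 1 factor per library. The names hg19, STAR, Picard, HTSeq and DESeq2 stand in the submitters' processing notes, without versions or roles. The annotation and strand setting are not given in the sources used here. Dividing each library's signal by its smallest step gave whole reads for 100% of values (tolerance 1e-04). Rows that name no gene were left out. They held 29.83 to 30.47% of all counts in the SART1 table and 7.362 to 8.088% in the SARNP and DDX39A table. In the TMEM259 and FIBP table they held 27.57 to 29.18%. With only the reads of no feature or an ambiguous one counted beside gene reads, the share was 7.362 to 10.84%. Genes with a mean of at least 10 entered limma 3.58.1 (R 4.3.3) on log2(signal + 1), which understates the change of low genes, with all groups of a table in 1 fit, a trended prior and Benjamini-Hochberg adjustment over all genes, at a threshold of 0.05. Tables were fitted separately. The code was tested on simulated data. Alternatives were 2 count tests on the recovered reads (edgeR 4.0.16, DESeq2 1.42.0), a pseudocount of 5, no filter, a minimum mean of 50, quantile normalization, only the groups compared, a replicate block, and each library left out. The labels' spellings SARPN and FIPB were read as SARNP and FIBP. Control titles read NTC in the SARNP and DDX39A table and NEGsiRNA in the others. Both were taken as the AllStars negative control. The genes and lists were chosen with earlier results of these data known. Some listed genes are not reported here. Named are all listed genes of the group, from each other list up to 4 genes per target called by both siRNAs with the same sign, those called in at least 3 targets, and, for the 3 genes of widest range, the 3 most like them.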

Additional observations from a re-analysis of the deposited data

Results flagged for a closer look

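For 7 gene and target pairs the 2 siRNAs of a target were called in opposite directions against the same controls, and the direct difference between them was called as well (limma, adjusted over all genes). With SART1, CNN2 differed by -0.37 and MYL9 by -0.57 on the log2 scale between siRNA 4, where both were lower, and siRNA 6, where both were higher. With DDX39A, TPM1 differed by 0.31 and FLNA by 0.41 between siRNA 4, where both were higher, and siRNA 1, where both were lower. With SARNP, ACTN1 differed by 0.42 between siRNA 9, where it was higher, and siRNA 3, where it was lower. With TMEM259, CNN2 differed by 0.23 and VCL by 0.76 between siRNA 5, where both were higher, and siRNA 6, where both were lower. The direct difference follows from the 2 changes against controls, so its call is not separate support. Several of these calls were fragile. Those of TPM1 and FLNA with DDX39A siRNA 1 and of CNN2 with both TMEM259 siRNAs did not hold when single libraries were left out. Quantile normalization ended the calls of TPM1 and FLNA with both DDX39A siRNAs, their direct differences, and the call of CNN2 with SART1 siRNA 6. The reason for these differences was not tested.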

How the results depend on the processing

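Of 94 counts of called genes under 1264 alternatives, 1143 values stayed within 1.5 times the reported count, and of 153 log2 changes under 1887 alternatives 0 of those called as reported turned their sign. Of the 61 calls against controls, DESeq2 ended 8, edgeR 3, quantile normalization 10 and the replicate block 4, and of the 52 between siRNAs or targets 4, 1, 6 and 1, in the same order. The cause of these losses was not tested, except that quantile normalization fixes the value of the top gene. No effect shared by same-numbered libraries was seen, since differences between replicate 1 and 2 correlated at -0.06 to 0.055 between groups. This does not show whether the libraries were handled in pairs. With 2 libraries a group the precision is limited, most for TAGLN and TPM2, which had 8 to 227 and 12 to 142 reads.

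With DESeq2, genes of the group described here numbered 1 (reported 2) higher by both SART1 siRNAs and 1 (2) higher with SART1 siRNA 4, 0 (1) higher with FIBP siRNA 7 and 0 (1) higher for FIBP siRNA 7 against 6, 1 (3) lower by both FIBP siRNAs and 1 (3) lower with FIBP siRNA 6. Focal adhesion adaptors were 3 (5) higher with DDX39A, 1 (2) higher and 1 (2) lower with FIBP, 1 (3) lower with SARNP and 0 (1) lower with TMEM259. Other actin-signalled targets were 1 (2) lower with SART1 and 0 (1) with TMEM259, paralogs 0 (1) lower with TMEM259, serum-signalled targets 0 (2) higher with SART1, and SRF cofactors 0 (1) lower with DDX39A.

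After quantile normalization the group numbered 1 (0) higher by both DDX39A siRNAs, 1 (0) higher and 0 (2) lower with DDX39A siRNA 1, and 2 (1) higher with SARNP siRNA 9. It numbered 1 (2) lower for SARNP siRNA 9 against 3 and 0 (1) lower for TMEM259 siRNA 5 against 6. The count of 9 higher with DDX39A siRNA 4 also shrank, since FLNA (0) and TPM1 (0.03) were no longer called. Both were lost as well for DDX39A siRNA 4 against 1 (0 and 0.07), and FLNA for SARNP against DDX39A (0). Focal adhesion adaptors were 2 (1) higher and 1 (3) lower with SARNP, and 3 (7) higher and 2 (1) lower with SART1. Other actin-signalled targets were 4 (7) lower with SARNP. Paralogs were 3 (6) higher and 2 (1) lower with SART1, 2 (5) lower with SARNP and 0 (1) lower with TMEM259. Serum-signalled targets were 0 (2) higher with SART1, and SRF cofactors 1 (0) lower with FIBP.

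With edgeR the group numbered 0 (1) higher with FIBP siRNA 7 and 0 (1) for FIBP siRNA 7 against 6, focal adhesion adaptors 2 (1) higher with TMEM259 and serum-signalled targets 1 (2) higher with SART1. With only the groups compared, the group numbered 0 (1) higher for FIBP siRNA 7 against 6, focal adhesion adaptors 3 (1) higher and other actin-signalled targets 2 (1) lower with TMEM259, and serum-signalled targets 1 (2) higher with SART1. With the replicate block the group numbered 0 (1) higher with FIBP siRNA 7, 0 (1) higher for FIBP siRNA 7 against 6, 1 (3) lower by both FIBP siRNAs and 1 (3) lower with FIBP siRNA 6, and paralogs 0 (1) lower with TMEM259. A minimum mean of 50 gave 0 (1) higher for FIBP siRNA 7 against 6 and 1 (2) serum-signalled target higher with SART1, a pseudocount of 5 gave 1 (2) for the same target list, and no filter gave 0 (1) paralogs lower with TMEM259.

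Leaving out 1 library at a time moved these counts of the group: 1 to 2 (2) higher by both SART1 siRNAs, 1 to 2 (2) higher with SART1 siRNA 4, 0 to 1 (1) higher with FIBP siRNA 7, 0 to 1 (1) higher and 3 to 5 (5) lower for FIBP siRNA 7 against 6, and 1 to 3 (3) lower by both FIBP siRNAs. It gave 2 to 5 (4) lower by both SARNP siRNAs, 0 to 1 (2) lower with DDX39A siRNA 1, 1 to 2 (3) with FIBP siRNA 6, 3 to 5 (6) with SARNP siRNA 9 and 0 to 2 (1) for TMEM259 siRNA 5 against 6. Focal adhesion adaptors ran from 3 to 4 (5) higher with DDX39A, 1 to 2 (2) with FIBP and 1 to 2 (1) with TMEM259, and from 0 to 2 (2) lower with FIBP, 1 to 4 (3) with SARNP and 0 to 1 (1) with TMEM259. SRF cofactors ran from 0 to 1 (0) higher and 0 to 1 (1) lower with DDX39A, and 1 to 2 (2) higher with SART1. Other actin-signalled targets ran from 0 to 1 (0) higher with SARNP, and 0 to 1 (0) lower with DDX39A, 1 to 2 (2) with SART1 and 0 to 1 (1) with TMEM259. Paralogs were 0 (1) lower with TMEM259 throughout, and 3 to 5 (5) lower with SARNP. Serum-signalled targets ran from 0 to 1 (0) higher with SARNP, 0 to 2 (2) with SART1 and 0 to 1 (0) with TMEM259, and 0 to 1 (1) lower with DDX39A.

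Against controls 13 values of changes not called as reported turned their sign, of which 1 was then called, VCL with SARNP siRNA 9 after quantile normalization (0.087). Between siRNAs or targets 10 did, and 0 were called. They were, after quantile normalization, CNN2 for FIBP siRNA 7 against 6 (-0.002) and VCL for TMEM259 against FIBP (-0.005). With 1 library left out, TAGLN for FIBP siRNA 7 against 6 ran from -0.154 (without FIBP siRNA 7 replicate 1) to 0.181, and was -0.106 without FIBP siRNA 6 replicate 1. For SARNP siRNA 9 against 3, TAGLN ran from -0.369 to 0.082 (without SARNP siRNA 3 replicate 1) and was 0.018 without SARNP siRNA 9 replicate 1. For the same pair TGFB1I1 ran from -0.173 (without SARNP siRNA 9 replicate 1) to 0.203, and was -0.05 without SARNP siRNA 3 replicate 1. For TMEM259 against FIBP, TPM2 ran from -0.023 (without TMEM259 siRNA 5 replicate 1) to 0.305, and VCL from -0.008 (without TMEM259 siRNA 6 replicate 2) to 0.058.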
